A study of Homo sapiens with 4 samples.

Results

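RNA-seq values of 36 genes of cholesterol and fatty acid synthesis were examined in MV4-11 cells upon CEBPG knockdown. MV4-11 is a human acute myeloid leukemia cell line, and CEBPG encodes a leucine-zipper transcription factor of the C/EBP family. The genes were chosen by function as a list of symbols, with 26 in a sterol branch and 10 in a fatty acid branch. The rule names them by symbol and uses no measured value, but the list was drawn up with earlier results of these data known. Of the 36, 35 were listed in the deposited table (16490 genes), 34 passed a minimum mean of 0.5 FPKM over the libraries and were tested together with all other such genes (12142), ELOVL6 was listed but fell under this minimum, and ABCG1 was not analysed here.

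There were 2 libraries of sh-NC cells, which carry a control hairpin, and 2 libraries of sh-CEBPG#3 cells, which carry a hairpin against CEBPG. The study's methods describe CEBPG hairpins in the pLKO.1-puro lentiviral vector and MV4-11 lines selected with puromycin after infection, and the vector of the control hairpin is not given in the sources used here. Only 1 CEBPG hairpin was sequenced, and effects of this hairpin and of CEBPG loss cannot be told apart. The sources used here do not say if a group's libraries are from separate infections, so the p-values measure only the spread between these libraries.

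Values are FPKM, fragment counts corrected for transcript length and for the mapped reads of each library, so levels can be compared between genes. Differences are log2 fold changes on the log2(FPKM + 1) scale, sh-CEBPG#3 minus sh-NC, where a given ratio counts for less at low FPKM. A gene was called when its adjusted p in limma was under 0.05 (Benjamini-Hochberg over all genes tested). With 2 libraries against 2, an exact two-sided permutation test of a single gene cannot go below p = 0.333. FPKM totals per library were between 364353 and 389766, and the depth is unknown. Knockdown was seen in both libraries, where CEBPG itself, the target, had 30.4 and 33.6 FPKM with the control hairpin and 19.2 and 17.1 FPKM with sh-CEBPG#3, which is 56.8% of the control mean. All 10 markers of the line's identity were listed (among them CD33, FLT3, MPO and HOXA9), while none of 4 erythroid and 3 T cell markers was listed. The B cell list summed to 0.995 to 1.52 FPKM over the libraries, with CD79A not called and MS4A1 not listed. Of 4 epithelial or packaging cell markers EPCAM and CDH1 were not listed, KRT18 was not called (10.2 and 9.16 FPKM on average), and KRT8 rose from 2.29 and 2.35 FPKM to 6.26 and 6.19 FPKM (1.12, adjusted p = 1.55e-05), with the list summing to 12.06 and 12.92 FPKM in sh-NC cells and 16.01 and 14.77 FPKM in sh-CEBPG#3 cells. Of the 10 identity genes 6 were higher and 2 lower upon knockdown, which is 80% called. Over all genes tested, 42.2% were called, 18.5% higher and 23.8% lower. Of 7 macrophage maturation genes, 6 were listed and the 3 tested were higher, and the list summed to 105 and 117 FPKM in sh-NC cells and 260 and 238 FPKM in sh-CEBPG#3 cells, with CD14, CD163 and MSR1 at or near 0 in sh-NC cells. All 9 tested genes of a list of 10 interferon-stimulated genes were higher, from 37.7 and 41.0 FPKM in sum to 749 and 724 FPKM. Of these, IFIT1 and CXCL10 had sh-NC means of 0.240 and 0.335 FPKM. They passed the minimum for a test only through the sh-CEBPG#3 libraries, so their calls add no support. The part of these shifts in the lipid gene results was not tested. In bulk RNA, fewer cells with a transcript and less of it per cell cannot be told apart.

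Cholesterol is built from acetyl-CoA in the mevalonate pathway, which makes isoprenoid units and joins them to squalene, and in a later series of steps that close squalene to a sterol and trim it to cholesterol. The SREBP factors, encoded by SREBF1 and SREBF2, turn these genes on. SCAP carries them out of the endoplasmic reticulum when sterols are low, INSIG1 holds them back when sterols are high, and SREBP in turn raises INSIG1. LXR receptors such as NR1H3 sense oxysterols and act the other way, through the exporter ABCA1 and through MYLIP, a ubiquitin ligase that degrades lipoprotein receptors. Fatty acid synthesis starts from citrate, through ACLY, ACACA and FASN, and its products are lengthened by ELOVL enzymes and desaturated by SCD and the FADS enzymes.

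Promoters of 5 genes that the results below single out are shown as a description, and no test was run on the sequences. INSIG1 and SREBF2 are the control genes that changed in opposite directions, MSMO1 and PMVK are the sterol enzymes with the largest increase and decrease, and FADS3 is a desaturase gene that rose while its neighbours FADS1 and FADS2 fell. Each sequence lies in the 250 bases before the annotated start (RefSeq, GRCh38.p14) and is written 5′ to 3′ on the strand of the gene, and that of INSIG1 is its first 148 bases. The capitals mark the core of the sterol response element (CACNCCAC) and the CCAAT box (ATTGG), each on either strand.
INSIG1, chr7:155297628-155297775, plus strand: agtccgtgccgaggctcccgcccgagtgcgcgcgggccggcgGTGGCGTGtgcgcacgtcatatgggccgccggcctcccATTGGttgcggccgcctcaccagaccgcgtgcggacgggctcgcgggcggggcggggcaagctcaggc
SREBF2, chr22:41832855-41833104, plus strand: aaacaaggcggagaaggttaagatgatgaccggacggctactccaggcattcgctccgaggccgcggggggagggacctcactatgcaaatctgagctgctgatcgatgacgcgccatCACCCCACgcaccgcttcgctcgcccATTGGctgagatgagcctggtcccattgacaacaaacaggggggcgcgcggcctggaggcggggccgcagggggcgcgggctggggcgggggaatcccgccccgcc
MSMO1, chr4:165327419-165327668, plus strand: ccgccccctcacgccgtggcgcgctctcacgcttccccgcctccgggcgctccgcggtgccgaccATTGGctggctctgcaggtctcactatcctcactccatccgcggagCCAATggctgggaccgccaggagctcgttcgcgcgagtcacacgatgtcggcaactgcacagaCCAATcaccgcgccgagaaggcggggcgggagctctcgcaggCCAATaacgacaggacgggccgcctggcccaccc
PMVK, chr1:154936720-154936969, minus strand: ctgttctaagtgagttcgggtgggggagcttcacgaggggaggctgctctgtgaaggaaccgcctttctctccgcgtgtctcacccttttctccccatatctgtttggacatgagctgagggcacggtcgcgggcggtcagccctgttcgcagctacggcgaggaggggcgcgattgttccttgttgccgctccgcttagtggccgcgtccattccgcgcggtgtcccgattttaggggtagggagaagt
FADS3, chr11:61891546-61891795, minus strand: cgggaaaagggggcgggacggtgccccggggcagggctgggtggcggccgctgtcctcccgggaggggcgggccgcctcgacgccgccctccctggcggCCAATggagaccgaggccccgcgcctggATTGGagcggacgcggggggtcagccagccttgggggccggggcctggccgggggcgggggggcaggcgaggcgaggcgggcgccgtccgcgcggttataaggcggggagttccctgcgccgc

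All motifs were searched on both strands of the 250 bases before the start. SREBF2 held the full sterol response element TCACCCCAC, whose core begins 132 bases before the start, and was the only one of 31 genes with a promoter entry to hold it, where 0.49% of 9185 tested genes with an entry did. The core CACNCCAC, which overlaps the full element, was in 7 of the 31 genes (22.6%) against 6.4% of the tested genes. These 7 were ABCA1, ACACA, IDI1, INSIG1, SC5D, SCD and SREBF2. A CCAAT box was in 23 of 31 (74.2%) against 41.6%, with 4 copies in the MSMO1 promoter and none in those of PMVK and FADS1. It was present in 7 of 8 genes called higher, in 6 of 9 called lower and in 10 of 14 others. The ABCA1 promoter, of a gene called higher, held none, while those of FDPS and EBP, both called lower, held several copies. The E-box (CACGTG) was in 5 genes (16.1% against 11.6%), the C/EBP site (TTGCNNAA) in 2 (NSDHL and SCAP, 6.5% against 8.7%), and the C/EBP-ATF element (TGATGNAA) in none, against 2.1%. The DR4 element of LXR was in none either, against 0.018% of 27305 genes with an entry. A gene with several annotated starts counted once if any of its windows held the motif. ACAT2, FDFT1, SQLE, ABCG1 and FASN had no entry.

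Across the 34 genes tested, 12 were called lower and 8 higher upon CEBPG knockdown. That is 58.8% called, where 42.2% of all genes tested were called, 23.8% lower and 18.5% higher. Of the genes called higher, ABCA1 passed the minimum mean only through the sh-CEBPG#3 libraries. None of the 34 passed an unadjusted p under 0.05 with an absolute log2 fold change above 1, which 3.41% of all genes did. Both values rest on the pseudocount of 1. With 0.1 or 0.01 there were 2, ABCA1 (1.36 and 1.57) and FADS3 (1.38 and 1.48). The share of all genes past that fold with these pseudocounts is not given here. The median log2 fold change of the 34 genes was -0.01 and that of all genes tested was -0.04. Groups did not overlap in 28 of the 34, where 71.7% of all genes had no overlap. Whether the branches differ from each other was not tested. In the sterol branch 7 genes were lower and 7 higher of 25 tested, and in the fatty acid branch 5 were lower and 1 higher of 9 tested.

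The sterol synthesis enzymes did not move as a block. Of 18 enzymes, ACAT2, PMVK, FDPS, SQLE and EBP were lower, MVK, TM7SF2, MSMO1 and SC5D were higher, and 9 were not called. From ACAT2 to FDFT1, the steps up to squalene, 3 of 8 were lower and 1 higher, and from SQLE to DHCR7 2 of 10 were lower and 3 higher. That is 50% called among the 18 and in both the early and the late group. Over all genes tested, 42.2% were called, 23.8% lower and 18.5% higher. The median log2 fold change was -0.01 in the early group and 0.14 in the late group. Summed over the 18 enzymes, sh-NC libraries had 406 and 427 FPKM and sh-CEBPG#3 libraries 402.5 and 386 FPKM.

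PMVK, which phosphorylates mevalonate phosphate, showed the largest decrease among the enzymes. It had 27.5 and 28.8 FPKM with the control hairpin and 17.8 and 18.6 FPKM with sh-CEBPG#3, with no overlap. Its means were 28.1 ± 0.905 and 18.2 ± 0.556 FPKM (SD, n = 2), a log2 fold change of -0.60 (SE 0.08, adjusted p = 0.000197 in limma). PMVK is encoded on chromosome 1 from 154924740 to 154936719 in GENCODE (GRCh38).

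FDPS, which makes farnesyl diphosphate, was the most abundant sterol enzyme in sh-NC cells, while in sh-CEBPG#3 cells FDFT1 stood above it (88.5 and 83.7 FPKM). The FDPS values were 101 and 103 FPKM in sh-NC cells and 71.9 and 76.8 FPKM in sh-CEBPG#3 cells, a log2 fold change of -0.46 (SE 0.07, adjusted p = 0.000653 in limma). The sh-CEBPG#3 libraries thus held 72.6% of the control mean. SQLE, the squalene epoxidase that opens the sterol-specific part, had 16.8 and 19.6 FPKM against 14.2 and 13.8 FPKM (-0.35, SE 0.09, adjusted p = 0.0108). Smaller decreases were seen for ACAT2, the acetoacetyl-CoA thiolase, with 31.1 and 30.8 FPKM against 27.2 and 25.5 FPKM (-0.23, adjusted p = 0.0351). EBP, a sterol isomerase, had 17.4 and 18.3 FPKM against 14.6 and 15.2 FPKM (-0.25, adjusted p = 0.0284). In all 5 genes both sh-CEBPG#3 libraries lay below both sh-NC libraries.

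MSMO1, the sterol methyl oxidase, showed the largest increase. It had 9.64 and 10.6 FPKM with the control hairpin and 17.7 and 14.8 FPKM with sh-CEBPG#3. Its means were 10.1 ± 0.704 and 16.2 ± 2.05 FPKM (SD, n = 2), a log2 fold change of 0.63 (SE 0.10, adjusted p = 0.000813 in limma). TM7SF2, a sterol reductase, rose from 3.45 and 3.69 FPKM to 5.277 and 5.603 FPKM (0.50, SE 0.10, adjusted p = 0.00261). SC5D, a sterol desaturase near the end of the pathway, rose from 2.51 and 2.70 FPKM to 4.05 and 3.71 FPKM (0.44, SE 0.10, adjusted p = 0.00751). These 3 act after squalene is closed to a sterol. MVK, the mevalonate kinase that acts just before PMVK, rose from 9.76 and 10.3 FPKM to 13.0 and 12.2 FPKM (0.30, SE 0.09, adjusted p = 0.0157), so the kinases of consecutive steps changed in opposite directions.

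The 9 enzymes not called had estimates from -0.21 for LSS to 0.20 for MVD. HMGCS1, which makes the substrate of the pathway's committed step, had 11.99 and 11.78 FPKM in sh-NC cells and 12.45 and 12.02 FPKM in sh-CEBPG#3 cells, a difference of 0.04 with a 95% interval from -0.14 to 0.22. The interval of FDFT1, the squalene synthase, ran from -0.01 to 0.32, that of CYP51A1 from -0.08 to 0.29 and that of DHCR7, which makes cholesterol in the last step, from -0.04 to 0.31. IDI1, NSDHL and LSS overlapped between the groups and the other 6 did not, where 71.7% of all genes tested had no overlap.

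**Figure D1:**
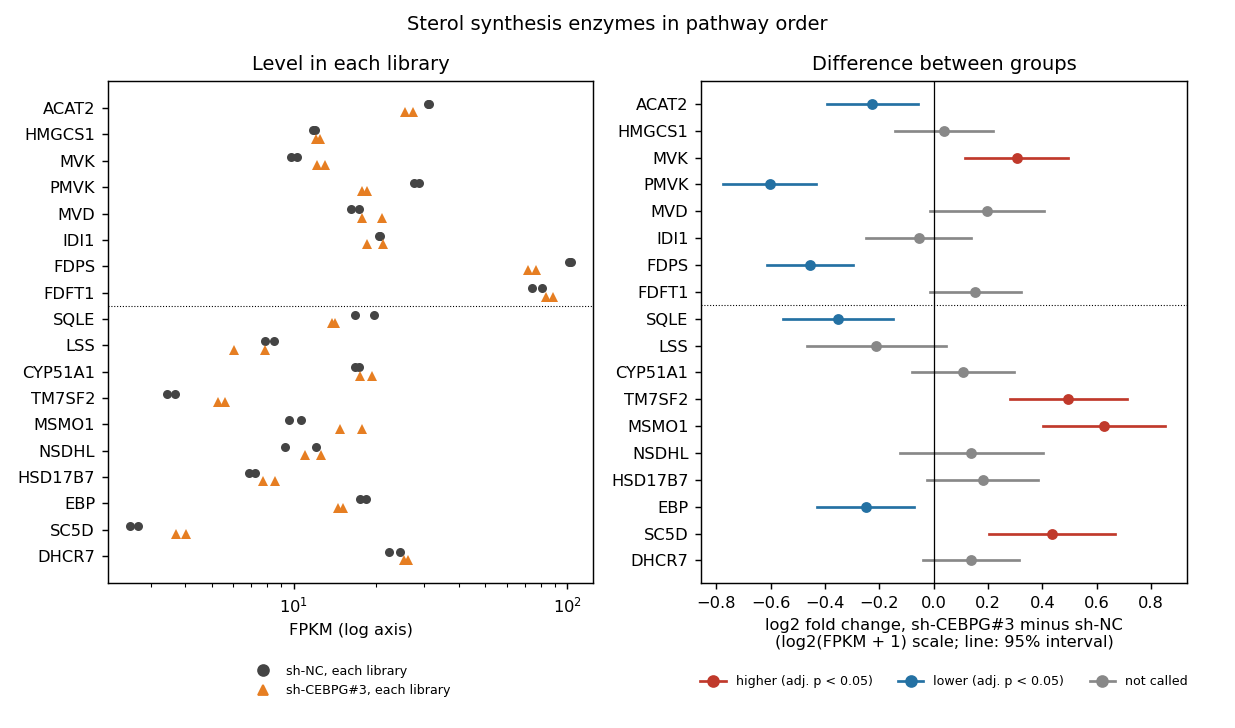
Left, FPKM of the 18 sterol synthesis enzymes in each library on a log axis (circles sh-NC, triangles sh-CEBPG#3). Right, log2 fold change with its 95% interval from limma, colored by call. Genes stand in pathway order and the dotted line separates the steps up to squalene from the later ones. PMVK (-0.60) and FDPS (-0.46) lie lowest and MSMO1 (0.63) and TM7SF2 (0.50) highest.

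With 1 library left out, several of the smaller changes were no longer called while their direction held. Such fits also called fewer of all genes tested, from 31.9% to 41.2% against 42.2%. Without sh-CEBPG#3 replicate 2, limma gave -0.18 for ACAT2 (adjusted p = 0.236), -0.28 for EBP (adjusted p = 0.0782) and -0.34 for SQLE (adjusted p = 0.0537). Without sh-CEBPG#3 replicate 1 it gave -0.27 for ACAT2 (adjusted p = 0.0807), -0.22 for EBP (adjusted p = 0.147) and 0.26 for MVK (adjusted p = 0.0983), while LSS was called lower (-0.37, adjusted p = 0.028). ACAT2 was not called without sh-NC replicate 1 (-0.22, adjusted p = 0.0566). Without sh-NC replicate 2, SQLE (-0.25, adjusted p = 0.0587) and EBP (-0.22, adjusted p = 0.0982) were not called, and FDFT1 (0.22, adjusted p = 0.0261) and NSDHL (0.31, adjusted p = 0.0256) were called higher. PMVK, FDPS, TM7SF2 and MSMO1 kept their calls in each of the 12 alternatives tried.

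Among the control genes, INSIG1 was higher, SREBF2 was lower, and SREBF1 and SCAP were not called. INSIG1 had 19.4 and 19.3 FPKM with the control hairpin and 30.7 and 30.6 FPKM with sh-CEBPG#3, so each group was tight and the groups lay far apart. Its log2 fold change was 0.64 (SE 0.07, adjusted p = 0.000109 in limma). SREBF2, the SREBP gene tied most closely to cholesterol synthesis, had 41.5 and 43.6 FPKM against 34.1 and 32.2 FPKM, with means of 42.5 ± 1.48 and 33.2 ± 1.32 FPKM (SD, n = 2). The log2 fold change of SREBF2 was -0.35 (SE 0.08, adjusted p = 0.00429). Without sh-CEBPG#3 replicate 2 it was -0.31 (adjusted p = 0.0543). SREBF1, whose products drive mainly fatty acid genes, had 20.4 and 21.4 FPKM against 20.6 and 19.2 FPKM, overlapping groups with a difference of -0.06 and a 95% interval from -0.24 to 0.11. SCAP had 18.0 and 18.4 FPKM against 20.04 and 19.83 FPKM (0.12, 95% interval from -0.05 to 0.30).

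Of the genes of sterol efflux and receptor control, MYLIP and ABCA1 were called higher and NR1H3 lower. MYLIP rose from 14.2 and 15.4 FPKM to 23.2 and 22.0 FPKM, a log2 fold change of 0.58 (SE 0.08, adjusted p = 0.000374 in limma). ABCA1 was low in every library, and its sh-NC mean of 0.331 FPKM was under the minimum for a test, which it passed only through the group where it is high, so its call is no support for a change of the list. It had 0.350 and 0.313 FPKM in sh-NC cells and 1.10 and 0.918 FPKM in sh-CEBPG#3 cells. Its log2 fold change was 0.59 (SE 0.14, adjusted p = 0.0068), and at such levels the pseudocount sets much of this value, which was 1.36 with a pseudocount of 0.1 and 1.57 with 0.01. NR1H3, the LXR gene, fell from 3.12 and 2.86 FPKM to 1.95 and 1.88 FPKM (-0.45, SE 0.11, adjusted p = 0.00789).

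**Figure D2:**
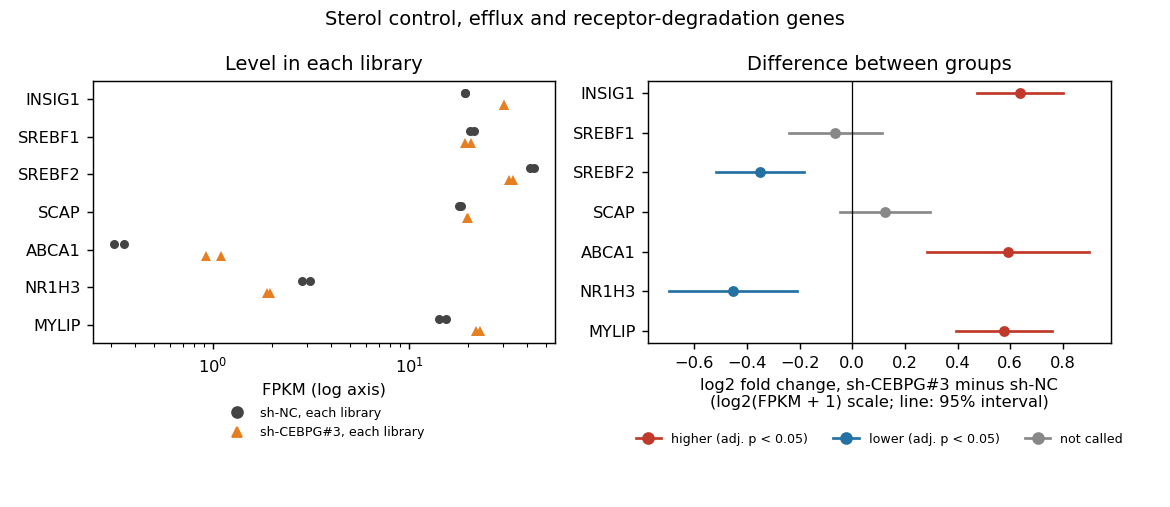
Left, FPKM in each library on a log axis for the 7 listed control, efflux and receptor-degradation genes (circles sh-NC, triangles sh-CEBPG#3). Right, log2 fold change with its 95% interval from limma. INSIG1 (0.64), ABCA1 (0.59) and MYLIP (0.58) lie above 0, SREBF2 (-0.35) and NR1H3 (-0.45) below, and the intervals of SREBF1 and SCAP cross 0.

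The fatty acid branch was lower in most of its called members. FASN, ELOVL1, ELOVL5, FADS1 and FADS2 were lower, FADS3 was higher, and ACLY, SCD and ACACA were not called. That is 66.7% called, where 42.2% of all genes tested were, 18.5% higher and 23.8% lower. The branch had a median log2 fold change of -0.23 over 9 genes. Its summed level was 308 and 326 FPKM in sh-NC libraries and 278 and 270 FPKM in sh-CEBPG#3 libraries.

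ACLY, which supplies acetyl-CoA from citrate, had 55.3 and 60.1 FPKM in sh-NC cells and 56.1 and 53.4 FPKM in sh-CEBPG#3 cells, with overlap (-0.07, 95% interval from -0.24 to 0.10). ACACA, the acetyl-CoA carboxylase, had 3.74 and 0.00430 FPKM with the control hairpin and 2.24 and 2.20 FPKM with sh-CEBPG#3. The level in sh-NC replicate 2 was nearly 0 while the other libraries held 2.20 to 3.74 FPKM, so the ACACA difference depends on which sh-NC library is kept. It was 0.56 (adjusted p = 0.408 in limma) with all libraries, -0.56 (adjusted p = 0.00204) without sh-NC replicate 2 and 1.68 (adjusted p = 5.93e-19) without sh-NC replicate 1, and no direction is given.

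FASN, the fatty acid synthase, had 57.3 and 59.7 FPKM with the control hairpin and 49.9 and 49.3 FPKM with sh-CEBPG#3. The groups did not overlap, and the log2 fold change was -0.23 (SE 0.07, adjusted p = 0.0226 in limma). Of all genes tested, 49.8% had a larger absolute change than FASN. SCD, which makes monounsaturated fatty acids, was the most abundant gene of the branch, with 93.8 and 100.3 FPKM against 93.7 and 88.1 FPKM (-0.09, 95% interval from -0.26 to 0.07).

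Both tested elongase genes of the branch were lower, where 23.8% of all genes tested were. ELOVL5, which lengthens polyunsaturated fatty acids, fell from 52.3 and 56.5 FPKM to 37.9 and 41.1 FPKM (-0.45, SE 0.08, adjusted p = 0.00127 in limma). ELOVL1, which makes very long saturated chains, had 19.4 and 23.7 FPKM against 17.97 and 15.99 FPKM (-0.32, SE 0.11, adjusted p = 0.0312). The elongase ELOVL6 was near 0 throughout, at 0.0696 FPKM and 0 in sh-NC cells and 0.0613 and 0.0185 FPKM in sh-CEBPG#3 cells, and was not tested.

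The FADS genes lie next to each other on chromosome 11 and did not change alike. FADS1 and FADS2 encode the front-end desaturases of polyunsaturated fatty acid synthesis, and FADS3 encodes a relative that acts on sphingoid bases. FADS1 fell from 8.79 and 8.70 FPKM to 4.97 and 4.72 FPKM, with means of 8.75 ± 0.0639 and 4.85 ± 0.174 FPKM (SD, n = 2). Its log2 fold change of -0.74 (SE 0.09, adjusted p = 0.00014 in limma) was the largest decrease of the 34 genes, and 7.96% of all genes tested had a larger absolute change. FADS2 had 16.1 and 16.7 FPKM against 13.3 and 12.7 FPKM (-0.31, SE 0.08, adjusted p = 0.0104). FADS3 rose from 0.957 and 0.637 FPKM to 2.17 and 2.21 FPKM, a log2 fold change of 0.83 (SE 0.13, adjusted p = 0.000766). With pseudocounts of 0.1 and 0.01 the FADS3 value was 1.38 and 1.48. Its mean was 275% of control, where that of ABCA1 was 304%. In GENCODE, FADS1 spans 61799627 to 61829318, FADS2 61792980 to 61867354 and FADS3 61873519 to 61892051. Exons of FADS1 and FADS2 share 490 bases on opposite strands, while none is shared with FADS3.

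Leaving out sh-CEBPG#3 replicate 2 reduced the calls in the fatty acid branch from 6 to 3, ELOVL5, FADS1 and FADS3. In that fit 31.9% of all genes were called, and limma gave -0.23 for FASN (adjusted p = 0.152), -0.24 for ELOVL1 (adjusted p = 0.179) and -0.28 for FADS2 (adjusted p = 0.0725), against -0.23, -0.32 and -0.31 with all libraries. Without sh-NC replicate 2, FASN (-0.20, adjusted p = 0.05) and ELOVL1 (-0.18, adjusted p = 0.166) were not called, and without sh-CEBPG#3 replicate 1 FASN was not called (-0.24, adjusted p = 0.124).

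**Figure D3:**
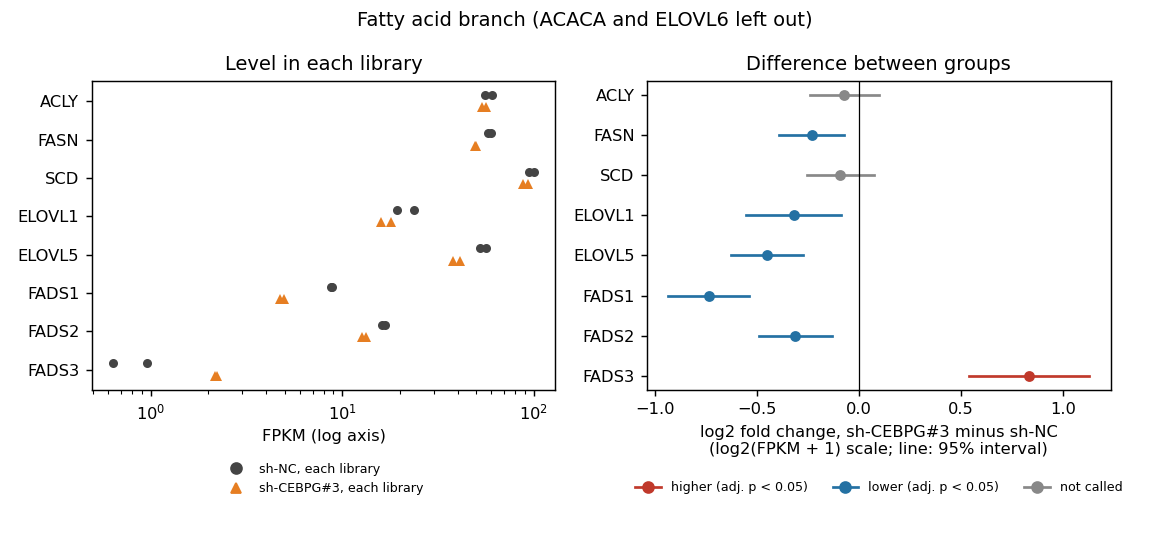
Left, FPKM in each library on a log axis for 8 genes of the fatty acid branch (circles sh-NC, triangles sh-CEBPG#3). Right, log2 fold change with its 95% interval from limma. FADS1 (-0.74) lies lowest and FADS3 (0.83), the least abundant gene shown, highest.

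**Figure D4:**
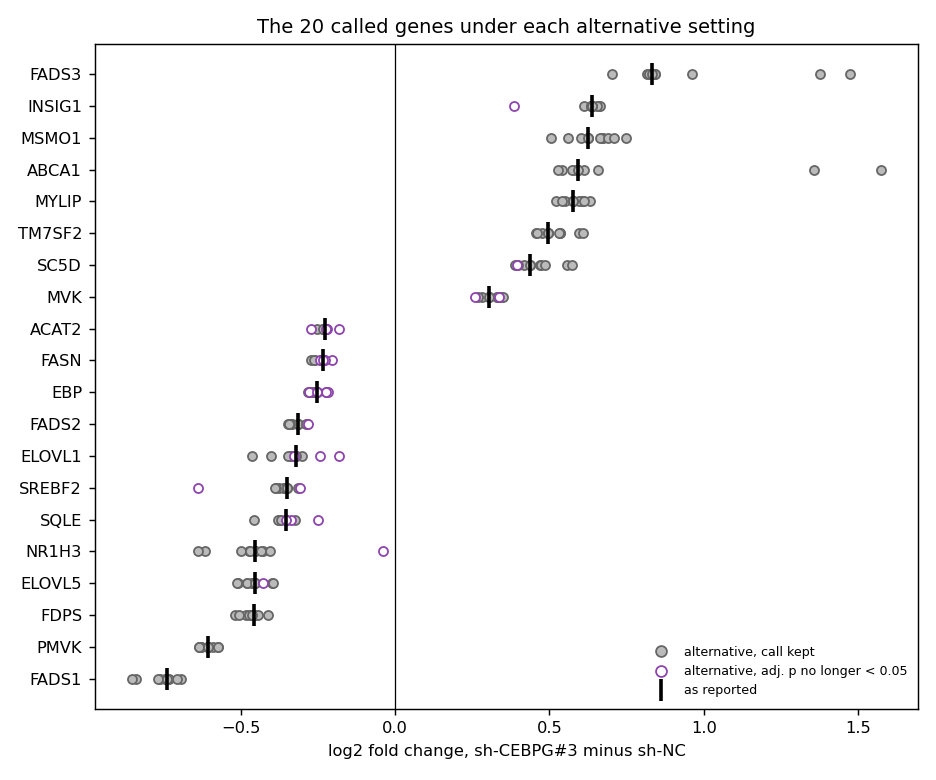
Log2 fold change (sh-CEBPG#3 minus sh-NC) of each of the 20 called genes as reported (black bar) and under each alternative setting (circles, open where the adjusted p in limma was no longer under 0.05). No gene crosses 0, and FADS3, ABCA1 and NR1H3 move most. FADS3 and ABCA1 do so with the smaller pseudocounts, and NR1H3 with its most abundant transcript (-0.038).

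The 35 listed genes comprise 85 RefSeq transcripts, and 22 of the genes have more than 1. Of the 65 transcripts tested by themselves, 4 were called, NM_006556 of PMVK and NM_013402 of FADS1 lower and NM_006745 of MSMO1 and NM_013262 of MYLIP higher, where 8.24% of all transcripts tested were called. PMVK, FADS1 and MYLIP each have this 1 transcript only. No transcript was called when any single library was left out, and the share of all transcripts called in those fits is not given here. Summed per gene, the log2 fold change over all alternatives ran from -0.635 to -0.572 for PMVK and from -0.851 to -0.694 for FADS1. For MSMO1 it ran from 0.505 to 0.748 and for MYLIP from 0.522 to 0.632. In 10 genes the tested transcripts had estimates on both sides of 0. The split of a gene between transcripts varied within groups, so these values are given as a description.

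INSIG1 was called in sum, while no single transcript of it was. Its main transcript NM_005542 had 18.5 and 14.3 FPKM in sh-NC cells and 22.8 and 20.3 FPKM in sh-CEBPG#3 cells (0.39, adjusted p = 0.192 in limma over transcripts), and NM_198336 had 0.548 and 5.06 FPKM against 6.72 and 7.32 FPKM. For SREBF2, the coding transcript NM_004599 had 34.4 and 37.3 FPKM against 28.4 and 18.1 FPKM, while the non-coding NR_103834 had 7.05 and 6.23 FPKM against 5.70 and 14.2 FPKM. The sh-CEBPG#3 libraries thus differed from each other in how SREBF2 was divided and not in its sum. SREBF1 had NM_004176 at 18.2 and 19.8 FPKM against 17.8 and 16.3 FPKM, and NM_001005291 at 2.16 and 1.51 FPKM against 2.86 and 2.98 FPKM. Neither transcript of SREBF1 was called. NR1H3 fell in sum, yet its main transcript NM_005693 had 1.93 and 1.81 FPKM against 1.95 and 1.65 FPKM (-0.04, adjusted p = 0.905). The rest of the NR1H3 sum was in NM_001130101, listed at 0 and 0.880 FPKM against 0 and 0.232 FPKM, and NM_001130102, at 1.19 and 0.168 FPKM against 0 in both sh-CEBPG#3 libraries, and neither passed the minimum for a test. In ACLY, NM_001096 had 42.5 and 43.3 FPKM against 35.7 and 33.7 FPKM (-0.30, adjusted p = 0.0678) and NM_198830 had 11.0 and 15.3 FPKM against 18.5 and 18.1 FPKM (0.46, adjusted p = 0.177), so its nearly level sum held transcripts with opposite estimates.

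Some values can hold reads of other genes. In GENCODE, 37.7% of the exon bases of HMGCS1 are shared with a long noncoding RNA on the opposite strand, 18.6% of FDPS with RUSC1-AS1, 17.2% of ACAT2 with TCP1, 15.0% of IDI1 with IDI2-AS1 and 9.1% of SREBF2 with SREBF2-AS1. Whether strand was used in the quantification is not given in the sources used here, and without it such reads cannot be told apart. EBP shares 36.4% and CYP51A1 68.2% of exon bases with an unnamed gene model on the same strand. HSD17B7P2, a pseudogene of HSD17B7, is listed at 0.898 to 1.41 FPKM, where HSD17B7 has 6.84 to 8.52 FPKM.

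Genes around the pathway were taken from lists by function. In a list of 9 tested genes of SREBP processing and its targets, 2 were higher, where 18.5% of all genes tested were. The median log2 fold change of this list was -0.20. INSIG2, the partner of INSIG1, rose from 2.52 and 2.96 FPKM to 4.04 and 3.60 FPKM (0.37, adjusted p = 0.0229 in limma), and STARD4, a cholesterol carrier, rose from 6.78 and 7.09 FPKM to 9.47 and 9.46 FPKM (0.40, adjusted p = 0.00431). MBTPS1 (-0.20, adjusted p = 0.091) and MBTPS2 (-0.24, adjusted p = 0.0823), the proteases that release SREBP, were not called.

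In a list of 17 genes of sterol uptake, storage and transport, 12 were tested, 6 higher and 2 lower, with a median log2 fold change of 0.19. That is 66.7% called, where 42.2% of all genes were, 18.5% higher and 23.8% lower. LIPA, the lysosomal acid lipase, rose from 37.9 and 39.2 FPKM to 68.8 and 62.5 FPKM (0.75, adjusted p = 4.72e-05 in limma). NPC1 (0.42, adjusted p = 0.0053) and NPC2 (0.62, adjusted p = 0.000481), which move cholesterol out of lysosomes, NCEH1, a cholesteryl ester hydrolase (0.75, adjusted p = 0.00065), SCARB1, a lipoprotein receptor (0.59, adjusted p = 0.000205) and OSBPL9 (0.28, adjusted p = 0.0237) also rose. SOAT1, which esterifies cholesterol for storage, fell from 3.95 and 4.42 FPKM to 3.1 and 2.77 FPKM (-0.40, adjusted p = 0.013), as did OSBP, an oxysterol-binding protein (-0.32, adjusted p = 0.0115). The lysosomal proteases CTSB (1.06) and CTSD (1.44), which are on the maturation list, rose in the same libraries as LIPA, NPC1 and NPC2.

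Among 10 genes of LXR partners and targets, 2 were higher and 2 lower and 6 were not called, which is 40% called against 42.2% of all genes. RXRA, the partner with which LXR binds DNA, fell from 37.7 and 42.8 FPKM to 18.8 and 18.3 FPKM (-1.07, SE 0.08, adjusted p = 8.19e-06 in limma). NR1H2, the other LXR gene, rose from 28.0 and 28.3 FPKM to 43.1 and 39.4 FPKM (0.53, adjusted p = 0.000438). APOE, a lipoprotein component made by macrophages that passed the minimum only through the sh-CEBPG#3 libraries, rose from 0.224 and 0.368 FPKM to 1.95 and 1.35 FPKM (1.02, adjusted p = 0.000525), and APOC2 fell from 164 and 165 FPKM to 136 and 133 FPKM (-0.29, adjusted p = 0.00574).

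Of 20 tested genes that supply, activate or extend fatty acids, 5 were higher and 6 lower, which is 55% called against 42.2% of all genes. ACSL1, a long-chain acyl-CoA synthetase, rose from 29.5 and 31.0 FPKM to 70.3 and 65.8 FPKM (1.14, SE 0.08, adjusted p = 2.8e-06 in limma). ME1, the malic enzyme that supplies NADPH, rose from 1.47 and 1.42 FPKM to 4.39 and 3.98 FPKM (1.08, SE 0.11, adjusted p = 4.25e-05). ACSS2 (0.41, adjusted p = 0.00544), which makes acetyl-CoA from acetate, SLC25A1 (0.28, adjusted p = 0.0115), the mitochondrial citrate carrier, and ACSL4 (0.67, adjusted p = 0.000126) were higher too. The lower genes were the desaturase SCD5 (-0.70, adjusted p = 0.000848), the elongase ELOVL3 (-0.61, adjusted p = 0.00102) with 2 enzymes of the elongation cycle, HACD1 (-0.76, adjusted p = 0.000254) and HSD17B12 (-0.31, adjusted p = 0.0146). ACSL5, another acyl-CoA synthetase (-0.46, adjusted p = 0.00161), and CBR4, a reductase of mitochondrial fatty acid synthesis (-0.45, adjusted p = 0.00442), made up the 6.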

How the data were processed

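RNA was extracted with Trizol and libraries were made with the Illumina TruSeq RNA Sample Prep Kit. Per the labels, the submitters' processing notes name HISAT2 2.0.5 and hg38. The authors filtered the reads, mapped them and deposited 1 FPKM per RefSeq transcript in every library. The program that computed them is not given in the sources used here.

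FPKM of the 28581 transcripts with a value were summed per gene symbol, and the 164 without a symbol were each kept as a gene of their own. Genes averaging 0.5 FPKM or more were compared as log2(FPKM + 1) in limma 3.58.1 (R 4.3.3) with a mean-variance trend and Benjamini-Hochberg adjustment. FPKM carry no counts, so the authors' DESeq2 test was not run and no depth is given. Among 1027 transcripts under 0.06 FPKM in both sh-NC libraries, at most 0.292% shared a ratio between them, so no steps of whole reads were seen. Simulated data were used to test the fit.

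The genes and lists were chosen with earlier results of these data known. Each of the 36 genes was accounted for, with library values for those called and for INSIG1, SREBF1, SREBF2 and FASN. Of related lists, those called with a log2 fold change beyond 1 either way were to be named, at most 5 each way, and others were chosen after their values were seen. Promoters came from RefSeq (GRCh38.p14), gene spans and exon overlaps from GENCODE. The motif CACNCCAC was added after the other motifs had been counted. The alternatives tried were each library left out, the replicate block, the most abundant transcript per gene, equal totals, quantile normalization, a minimum of 1 FPKM or none, and pseudocounts of 0.1 and 0.01. A fit without 1 library assumes that the lone library of its group varies like the others. The result of 1 gene of the related lists is not reported here.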

Additional observations from a re-analysis of the deposited data

How the results depend on the processing

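Directions of the 20 called genes held under all alternatives, but not all of their calls did. With the most abundant transcript 9 of the 20 kept their call, and the NR1H3 value was close to 0 (-0.038). Over 407 values of single genes, 359 kept direction and call, 31 lost a call, 13 gained one and 4 reversed. The reversals were IDI1 (0.039 without sh-CEBPG#3 replicate 2, with a range from -0.150 over single libraries left out), NSDHL (-0.032 without sh-NC replicate 1, up to 0.308) and ACACA (-0.559 without sh-NC replicate 2, up to 1.681, and -0.241 by its most abundant transcript). With the most abundant transcript, 4 sterol enzymes and 0 control genes were called against 9 and 2, and the fatty acid median was -0.30 against -0.23. In that setting limma tests 1 transcript per gene, and 23.9% of all genes were called. Without a filter, which adds ELOVL6, the fatty acid median was -0.16. Pseudocounts of 0.1 and 0.01 each put 2 genes, ABCA1 and FADS3, past an absolute log2 fold change of 1 with an unadjusted p under 0.05, against 0. The share of all genes that these pseudocounts put past it is not given here. Called transcripts numbered 4 as reported, 0 with the replicate block, 8 with equal totals and 7 with quantile normalization. The share of all transcripts called was 8.24% as reported and is not given here for these alternatives. With each library left out, calls ranged from 6 to 9 for sterol enzymes, 1 to 2 for control genes, 3 to 7 for the fatty acid branch and 29 to 38 for the related genes, from 0 to 1 past that fold, and were 0 for transcripts. The medians ranged from 0.042 to 0.165 for the sterol enzymes and from -0.263 to -0.205 for the fatty acid branch. Same-numbered libraries deviated with a correlation of 0.0606, so the numbers were not taken to pair them, and the replicate block gave 18 called genes against 20, without ACAT2, EBP and FASN and with ACACA. For none of these shifts was the cause tested. Without counts, the precision of low genes such as ABCA1, FADS3 and NR1H3 cannot be set by depth.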

Other observations

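Fatty acid oxidation, the opposite route to synthesis, had 19 of 20 listed genes tested, with 4 higher and 3 lower and a median log2 fold change of 0.18. That is 36.8% called, below the 42.2% of all genes. HADHB, a subunit of the mitochondrial trifunctional protein, had 45.1 and 48.3 FPKM in sh-NC cells and 72.0 and 69.4 FPKM in sh-CEBPG#3 cells (0.59, adjusted p = 0.00017 in limma), and its partner HADHA rose by less (0.25, adjusted p = 0.0297). The peroxisomal thiolase ACAA1 rose from 12.8 and 13.3 FPKM to 24.2 and 21.5 FPKM (0.76, adjusted p = 9.2e-05), while the mitochondrial thiolase ACAA2 fell from 5.40 and 6.21 FPKM to 3.75 and 3.74 FPKM (-0.52, adjusted p = 0.00252). CPT1B, a carnitine palmitoyltransferase, fell from 4.91 and 4.35 FPKM to 1.62 and 2.12 FPKM (-0.98, adjusted p = 0.000159), and CPT1A, the more abundant form at 15.6 to 20.1 FPKM, was not called (-0.22, adjusted p = 0.0706).

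Of 10 genes that use isoprenoids for prenylation, dolichol or ubiquinone, COQ2 was higher (0.45, adjusted p = 0.00217 in limma), FNTB was lower (-0.33, adjusted p = 0.037) and 8 were not called, which is 20% called. Over all 80 tested genes of the related lists, 35 were called (43.8%, where 42.2% of all genes were).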
